A study of Sus scrofa with 2 samples.

Results

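The genes described here are those that copy the chromosomes and divide the cell, in somatic cells of pig antral follicles. They were taken as a list of 43 names, and a name was used where the deposited gene list gave it as a symbol in both libraries. That held for 36 of the 43, out of 22342 genes in all, and these are 11 of 12 S-phase genes and 25 of 31 mitotic genes. RRM2 among the S-phase genes and CDK1, CCNA2, AURKA, BUB1, KIF23 and MKI67 among the mitotic genes were not listed under these symbols.

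The cells came from 1 Landrace × Yorkshire gilt, 210 days old and at puberty. It had received pregnant mare serum gonadotropin (PMSG) to induce the growth of antral follicles. Healthy follicles over 7 mm wide were punctured, and the granulosa cells of the fluid were sequenced with the 10x Genomics 3' kit, which counts RNA molecules as unique molecular identifiers (UMIs). The labels number the follicles 1 and 2, here AF75 and AF76 after the names given to the deposited data, and each gave 1 library. Both follicles had the same pig, hormone and handling, and no treatment set them apart, so the follicle and its library cannot be told apart and no test between follicles was possible. Barcodes with 2000 to 5000 genes and under 7% mitochondrial UMIs were kept as cells, 9362 in AF75 with a median of 11254.5 UMIs and 7843 in AF76 with a median of 13902 UMIs. The libraries shared 56 barcodes, of which 18 were among the kept cells.

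A dividing cell first licenses its replication origins with the MCM helicase and copies its DNA behind the PCNA clamp, and then condenses its chromosomes, attaches them to a spindle at the kinetochores and splits. Most genes of the second step are transcribed late in the cycle and their products are degraded at its end, so their RNA is largely a mark of cells that are dividing. Granulosa cells multiply while a follicle grows and stop as it nears ovulation. The kept cells had the RNA of granulosa cells, with INHA, the alpha subunit of inhibin, at 19854 and 23176 UMIs per 1000000 UMIs (CPM) in AF75 and AF76, while 6 of 8 oocyte genes (ZP2, ZP3, ZP4, BMP15, DAZL and OOEP) were at 0 UMIs in both. The other 2 were DDX4, with at most 0.0459 CPM, and GDF9, an oocyte growth factor, with 4.95 and 5.17 CPM.

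The promoters are shown first, for the 3 mitotic and the 3 S-phase genes of most UMIs that have one in the annotation, because the results below turn on genes with many UMIs. TOP2A and UBE2C were added after their matches were seen, as the pair with most CCAAT boxes among the 34 promoters found. Each line is the 250 bases before the RefSeq gene start in Sscrofa11.1, on the strand of the gene. Capitals mark the CCAAT box (CCAAT, or ATTGG on the other strand), the cell cycle homology region or CHR (TTTGAA and its reverse complement TTCAAA, or the palindrome TTTAAA) and an E2F site (TTTGGCGC or TTTCCCGC or TTTGCCGC or TTTCGCGC), each searched on both strands.
NUSAP1, chr1:130065642-130065891, minus strand: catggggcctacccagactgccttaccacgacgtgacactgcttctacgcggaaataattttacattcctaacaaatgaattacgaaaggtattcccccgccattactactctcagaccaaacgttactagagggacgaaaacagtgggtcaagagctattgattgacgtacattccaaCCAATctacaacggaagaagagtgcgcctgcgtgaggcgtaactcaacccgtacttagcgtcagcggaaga
CENPW, chr1:36695990-36696239, minus strand: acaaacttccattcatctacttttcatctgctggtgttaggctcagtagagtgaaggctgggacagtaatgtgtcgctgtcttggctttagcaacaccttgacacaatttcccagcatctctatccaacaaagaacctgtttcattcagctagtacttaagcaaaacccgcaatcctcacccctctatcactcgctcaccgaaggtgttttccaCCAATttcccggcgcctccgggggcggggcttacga
CENPF, chr9:129012242-129012491, minus strand: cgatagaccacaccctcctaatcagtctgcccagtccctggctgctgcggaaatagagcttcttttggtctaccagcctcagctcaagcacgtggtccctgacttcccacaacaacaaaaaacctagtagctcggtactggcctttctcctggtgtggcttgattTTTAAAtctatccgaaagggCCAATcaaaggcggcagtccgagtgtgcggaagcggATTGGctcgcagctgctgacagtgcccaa
TOP2A, chr12:22001050-22001299, plus strand: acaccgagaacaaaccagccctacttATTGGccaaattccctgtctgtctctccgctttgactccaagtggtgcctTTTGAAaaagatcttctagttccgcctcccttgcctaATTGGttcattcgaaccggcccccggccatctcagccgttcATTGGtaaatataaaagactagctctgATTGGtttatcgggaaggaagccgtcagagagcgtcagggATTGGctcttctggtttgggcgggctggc
UBE2C, chr17:48018153-48018402, plus strand: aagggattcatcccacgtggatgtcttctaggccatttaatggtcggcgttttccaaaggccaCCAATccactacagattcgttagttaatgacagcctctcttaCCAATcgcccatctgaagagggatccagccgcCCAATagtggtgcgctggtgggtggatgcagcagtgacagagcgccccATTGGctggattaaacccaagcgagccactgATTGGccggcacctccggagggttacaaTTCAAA
MCM6, chr15:15923388-15923637, plus strand: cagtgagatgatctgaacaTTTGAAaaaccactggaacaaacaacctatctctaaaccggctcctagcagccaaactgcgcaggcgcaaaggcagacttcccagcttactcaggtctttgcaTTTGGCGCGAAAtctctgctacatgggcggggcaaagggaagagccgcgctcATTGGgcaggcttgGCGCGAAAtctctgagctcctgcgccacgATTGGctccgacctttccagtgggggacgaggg
PCNA, chr17:14142585-14142834, minus strand: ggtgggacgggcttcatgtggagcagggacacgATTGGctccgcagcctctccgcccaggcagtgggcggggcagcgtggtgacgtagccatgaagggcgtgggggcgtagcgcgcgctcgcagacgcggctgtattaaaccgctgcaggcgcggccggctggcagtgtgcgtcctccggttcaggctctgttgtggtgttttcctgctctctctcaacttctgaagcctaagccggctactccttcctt
ATAD2, chr4:16012028-16012277, plus strand: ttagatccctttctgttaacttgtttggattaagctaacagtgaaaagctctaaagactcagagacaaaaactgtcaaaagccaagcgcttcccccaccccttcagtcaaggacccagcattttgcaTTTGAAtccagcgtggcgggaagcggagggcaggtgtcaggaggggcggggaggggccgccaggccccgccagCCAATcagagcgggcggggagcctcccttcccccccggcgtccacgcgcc

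TOP2A and UBE2C each held 5 CCAAT boxes and 1 CHR, and CENPF held 2 and 1. NUSAP1 and CENPW each held 1 CCAAT box and no CHR. MCM6 was the only printed promoter with an E2F site, with 3 matches of which a pair overlap. Over the 24 mitotic genes with a promoter, a CCAAT box was present in 16 (66.7%), a CHR in 12 (50%) and an E2F site in 3 (12.5%). Over 10 S-phase genes the numbers were 6 (60%), 3 (30%) and 1 (10%), and over 19506 promoters of protein-coding genes the shares were 31.9%, 20.9% and 2.82%. At least 2 CCAAT boxes were found in 9 mitotic promoters (37.5%) against 9.09% of all promoters. The median GC content was 53.4% in the mitotic promoters and 57.6% in all, and its part in the share with a CHR, whose letters are mostly A and T, was not tested. MCM5 and CIP2A were not matched to an annotated start and have no promoter here.

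Mitotic genes had lower levels in AF76 than in AF75. Their summed level was 325 CPM in AF75 and 163 in AF76, a ratio of 0.502 (95% interval 0.493 to 0.511, which like all intervals here covers counting error only). Of the 25 genes, 24 were at or below 1/1.5 in AF76 and none was at or above 1.5, where 5.43% of all 12172 genes with at least 50 UMIs lay at or below 1/1.5 and 4.09% at or above 1.5. The median ratio was 0.398 for the mitotic genes and 1.00 for all genes tested. The exception was NUSAP1, a spindle protein, and without it the summed levels were 259.7 and 98.6 CPM, a ratio of 0.380.

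Among the centromere and kinetochore genes, CENPW, which builds the inner kinetochore, had the lowest ratio of the mitotic genes, with 56.9 CPM in AF75 and 14.1 in AF76 (ratio 0.247, 0.234 to 0.262). CENPF, a large kinetochore protein of late G2, was at 29.3 and 11 CPM (0.377, 0.352 to 0.402). CENPE, the kinetochore motor, was at 18.1 and 7.20 CPM (0.398, 0.366 to 0.432). CENPA, the histone variant that marks the centromere, was low in both, at 1.10 and 0.321 CPM (0.293, 0.195 to 0.430). SPC24 of the NDC80 complex had a ratio of 0.422. Each of the 5 genes was thus higher in AF75, and in none did the intervals of the levels overlap.

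TOP2A, the topoisomerase that untangles sister chromatids, had 25 CPM in AF75 and 9.73 in AF76 (0.389, 0.362 to 0.418). UBE2C, the ubiquitin-conjugating enzyme of the anaphase-promoting complex, was at 28.2 and 11 CPM (0.389, 0.364 to 0.416). The other 2 genes of mitotic proteolysis and exit, CDC20 and CDCA3, had ratios of 0.593 and 0.420. CCNB1 and CCNB2, the B-type cyclins, had ratios of 0.379 and 0.520, and the kinase PLK1 had 0.340 from levels of only 0.539 and 0.184 CPM. The chromosomal passenger genes AURKB, BIRC5 and CDCA8 had ratios of 0.412, 0.433 and 0.315. The checkpoint genes BUB1B and MAD2L1 had 0.440 and 0.577, the latter from 14.6 and 8.45 CPM. These genes of separate steps of mitosis lay within a common range of 0.315 to 0.593.

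The spindle and cytokinesis genes TPX2, KIF11, KIF20A, DLGAP5, HMMR and DIAPH3 lay between 0.341 and 0.535. CIP2A, an inhibitor of a protein phosphatase, had 0.565. NUSAP1 did not follow them, with 65.4 CPM in AF75 and 64.5 in AF76 (0.987, 0.955 to 1.02). Its annotated span, chr1:129992797-130065641 of Sscrofa11.1, overlaps NDUFAF1 and OIP5 on the other strand. Whether the counting used strand is not given in the sources used here, and whether reads of these genes were counted under NUSAP1 was not tested. Of the 34 genes with a span, 12 overlap another gene, and CENPW, chr1:36405693-36695989, overlaps 3 unnamed loci on the other strand.

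S-phase genes differed less between the follicles and not in 1 direction. Their summed level was 103 CPM in AF75 and 75.6 in AF76 (0.736, 0.715 to 0.757). Of the 11 genes, 5 lay at or below 1/1.5, against 5.43% of all genes tested, and none at or above 1.5, against 4.09%. Of the MCM helicase, MCM6 had 38.0 and 18.5 CPM (0.488, 0.463 to 0.515), MCM5 had 7.44 and 4.59 CPM (0.617), and MCM2, MCM3 and MCM4 had ratios of 0.734, 0.635 and 0.765. UHRF1, which carries DNA methylation through replication, had the lowest ratio at 0.445 (0.346 to 0.569). CLSPN, the checkpoint adaptor claspin, had 0.643 and the chromatin ATPase ATAD2 had 0.834.

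PCNA was level, at 24.1 CPM in both follicles (1.00, 0.95 to 1.06), and so was HELLS, a chromatin remodeller, with a ratio of 0.978 (0.884 to 1.08). TYMS, which makes thymidylate, was the 1 gene with an interval above 1, at 2.91 CPM in AF75 and 4.04 in AF76 (1.39, 1.20 to 1.61). MCM6 held 4227 of the 11425 S-phase UMIs of AF75, and without it the log2 ratio of the sum was -0.18 in place of -0.44. The plot of levels by follicle gives these values for the 36 genes.

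**Figure D1:**
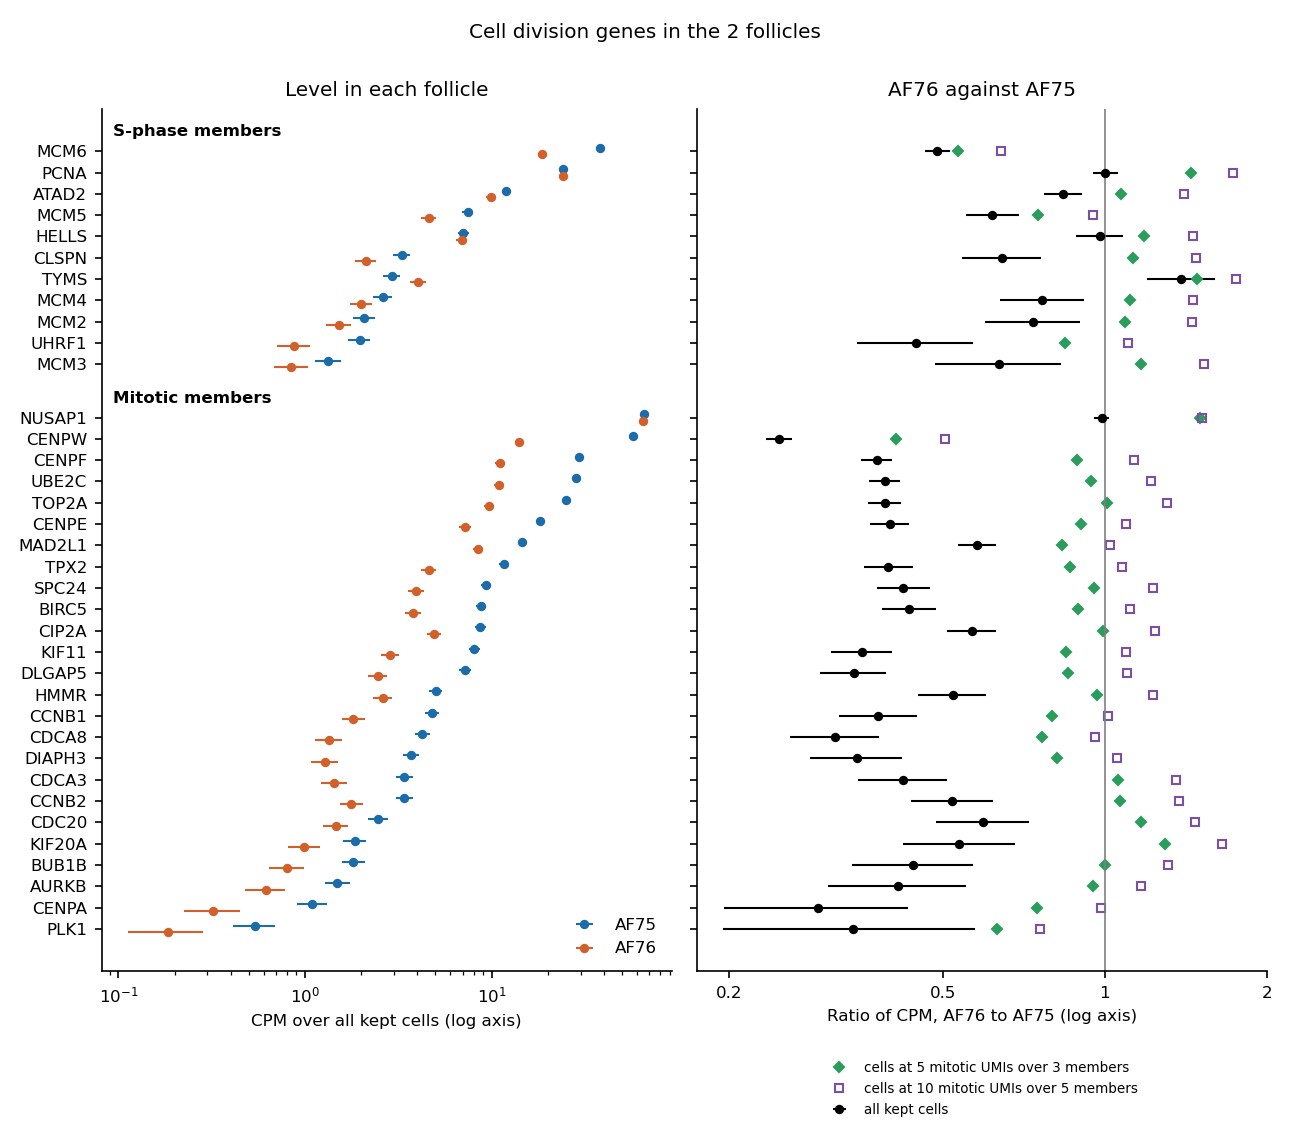
Left, CPM of each gene over all kept cells of AF75 and AF76 on a log axis, with exact 95% Poisson intervals. Right, the ratio of AF76 to AF75 on a log axis, in all kept cells (with its exact 95% interval) and within cells marked by the other mitotic genes at 2 limits. In all kept cells 24 of 25 mitotic genes lie between 0.247 and 0.593 and NUSAP1 at 0.987. Within marked cells the medians of the mitotic genes lie at 0.902 and 1.13 at the lower and the higher limit. CENPW and MCM6 are among the genes that lie left of 1 at both.

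Other genes of the pathway were counted from lists written with the earlier results known. Of 47 further mitotic genes with enough UMIs, 28 lay at or below 1/1.5 in AF76 and 1, PSRC1, at or above 1.5, with a median ratio of 0.608. Of 32 further S-phase genes, 8 lay at or below 1/1.5, with a median of 0.905. Of 17 genes listed as cycle machinery that resting cells also use, 1 lay at or below 1/1.5, RBL1 at 0.538, and the median was 0.948. The list held subunits of the anaphase-promoting complex and the retinoblastoma family. RBL1 was itself higher in cells marked by mitotic genes (below), so it did not behave as this listing says. Of 9 genes of cycle entry and its inhibitors none lay at or below 1/1.5 and 2 lay at or above 1.5, the inhibitors CDKN1C at 1.68 and CDKN2B at 1.54. Of all 12172 genes with at least 50 UMIs, 5.43% lay at or below 1/1.5 and 4.09% at or above 1.5. The 1 of 17 is thus near the share of all genes.

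The mitotic UMIs were concentrated in few cells. No mitotic UMI was found in 33.6% of the cells in AF75 and 34.0% in AF76, and most others had 1 to 4. The number of cells dropped from 921 with 3 to 4 UMIs to 166 with 5 to 9 and 45 with 10 to 19 in AF75, and from 968 to 149 and 15 in AF76. In AF75 it was higher in the next bin of the same width, with 57 cells at 20 to 29 UMIs, and in AF76 it was lower, with 9. Over the wider bins above, 145 and 30 cells had 30 to 49 UMIs and 204 and 48 had 50 to 99, and the highest cell held 168 and 210.0 UMIs. The 1% of cells with most mitotic UMIs held 25.6% of them in AF75 and 38.9% in AF76, and the 5% with most held 71.2% and 54.2%. The variance over the mean of the summed UMIs per cell (Fano factor) was 46.3 and 41.1.

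The S-phase UMIs were spread more evenly. The 1% of cells with most held 10.6% and 12.5%, and the Fano factor was 2.99 and 3.55. The number of cells fell with each step of S-phase UMIs up to 20 to 29, with 2 cells of AF76 above that at 50 to 99, and 42.5% and 43.6% of cells had no S-phase UMI. A single UMI says little here: at least 1 mitotic UMI was found in 66.4% and 66.0% of kept cells, and in 1 of 8 and 2 of 35 barcodes with at least 50% of UMIs from HBB, a beta globin of red blood cells, which had medians of 3036.5 and 4285 UMIs.

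**Figure D2:**
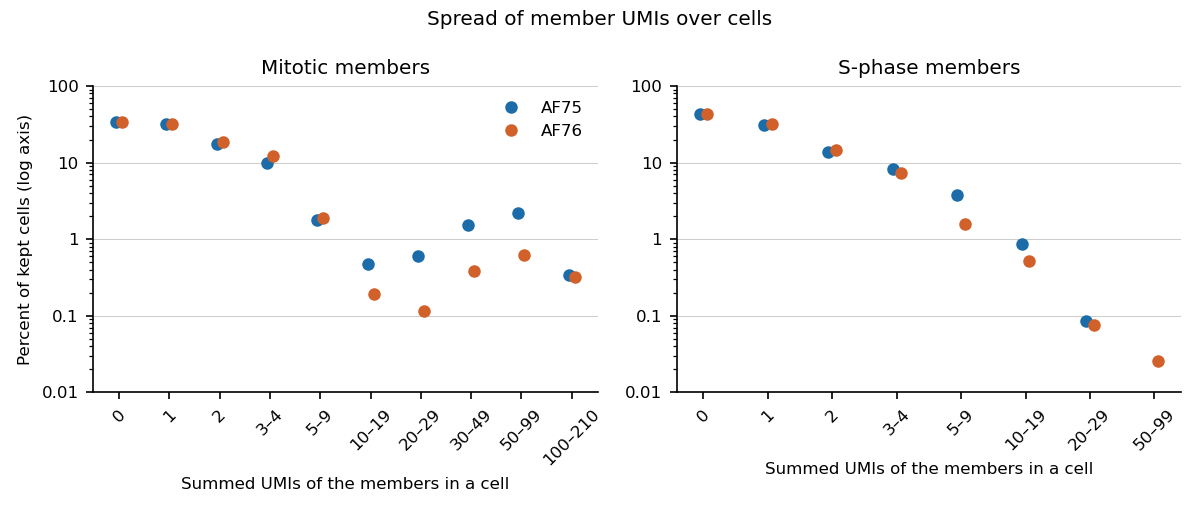
Percent of kept cells (log axis) by the summed UMIs of the mitotic genes (left) and of the S-phase genes (right) in a cell, for AF75 and AF76. Bins are not of equal width. The mitotic panel falls to 0.481% of cells of AF75 at 10 to 19 UMIs and 0.115% of AF76 at 20 to 29, and is at 2.18% and 0.612% in the wider bin of 50 to 99. The S-phase panel falls up to 20 to 29 UMIs, and AF76 has 2 more cells at 50 to 99 and none between.

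A cell was called mitotic-marked with at least 5 UMIs over at least 3 mitotic genes. This is a range of a count, not a cell type. There were 592 such cells in AF75 (6.32%, 5.84 to 6.84%) and 204 in AF76 (2.60%, 2.26 to 2.98%), although the cells of AF76 were deeper. After each cell was thinned to 5000 UMIs, which left out 19 and 105 shallower cells, the shares were 5.01% and 1.54%. With at least 10 UMIs over 5 genes they were 5.13% and 1.62%, with 20 UMIs over 10 genes 4.41% and 1.42%, and with NUSAP1 left out of the mark 5.62% and 1.79%. AF75 had the larger share at each of these limits, and the share of AF76 moved more in proportion. Counted over any number of mitotic genes, 166 cells of AF75 and 149 of AF76 had 5 to 9 mitotic UMIs, and not all were marked. Their S-phase level, 109.7 and 73.4 CPM, lay between that of cells with fewer mitotic UMIs, at 77.1 to 82.0 CPM and 63.1 to 67.0 CPM, and that of cells with 10 to 19, at 255 and 245 CPM. Marked cells had more UMIs than other cells, with medians of 15376.5 against 11063.5 in AF75 and 17890.5 against 13829 in AF76.

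A cell was called S-marked with at least 10 UMIs over at least 5 S-phase genes. There were 76 in AF75 (0.812%, 0.640 to 1.02%) and 45 in AF76 (0.574%, 0.419 to 0.767%), a difference of 0.238 percentage points (-0.0204 to 0.494) that was not detectable at this limit and depth. Every S-marked cell, 76 of 76 and 45 of 45, was also mitotic-marked, with at least 24 mitotic UMIs in AF75 and 18 in AF76. At the looser limit of 5 UMIs over 3 S-phase genes, the shares were 3.64% (3.27 to 4.04%) in AF75 and 1.87% (1.59 to 2.20%) in AF76. Of these cells, 43 of 341 in AF75 and 54 of 147 in AF76 had no mitotic mark. After thinning, only 2 cells in each follicle were S-marked, so the depth allows no count of S-phase cells as such.

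Each gene was then compared between cells marked by the other mitotic genes and the rest, so that no gene marked its own cells. Each of the 36 genes was at least 2 times higher in marked cells in both follicles, where 4.55% of 11399 genes in AF75 and 3.84% of 11420 genes in AF76 were. None was at or below 1/2, against 3.63% and 4.67% of genes. The cells were chosen by mitotic genes that are known to move together, so this is a description. The median ratio was 82.3 and 115 for the mitotic genes, 13.2 and 12.5 for the S-phase genes and 0.994 and 0.993 for all genes tested.

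A median of 88.4% of the UMIs of a mitotic gene lay in the marked cells of AF75 and 80.0% in those of AF76. Most confined to them was PLK1 in AF75 with 95%, and TOP2A in AF76 with 94.6%. TOP2A was at 279 CPM in marked and 1.79 CPM in other cells of AF75, and at 282 and 0.541 CPM in AF76. KIF11, the motor that pushes the spindle poles apart, had 92.2% and 87.5%, and DLGAP5, a kinetochore fibre protein, had 92.3% and 91.4%. MAD2L1 and CENPW were less confined, with 60.2% and 33.0%, and 74.5% and 46.3%. CIP2A was similar, with 71.4% and 47.9%.

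NUSAP1 stood apart from the other mitotic genes, with 25.2% and 11.7% of its UMIs in marked cells. Its level in other cells, 52.9 CPM in AF75 and 58.3 in AF76, was the highest of the 36 genes there. It was still higher in marked cells, at 217 and 327 CPM.

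For S-phase genes the median share of UMIs in marked cells was 55.0% in AF75 and 30.4% in AF76. UHRF1 (62.8% and 47.4%), MCM3 (62.2% and 45.7%) and CLSPN (61.3% and 42.9%) had the highest shares. MCM6 (15.8% and 6.88%) and PCNA (17.8% and 10.2%) had the lowest, with 35.0 and 17.9 CPM of MCM6 and 21.6 and 22.4 CPM of PCNA in cells without the mark. ATAD2 was the S-phase gene of highest level in marked cells, at 83.6 and 89.6 CPM against 5.29 and 7.17 CPM in other cells. The S-phase sum was higher in marked cells by 2.12 on the log2 scale (2.06 to 2.17) in AF75 and by 2.40 (2.32 to 2.49) in AF76.

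**Figure D3:**
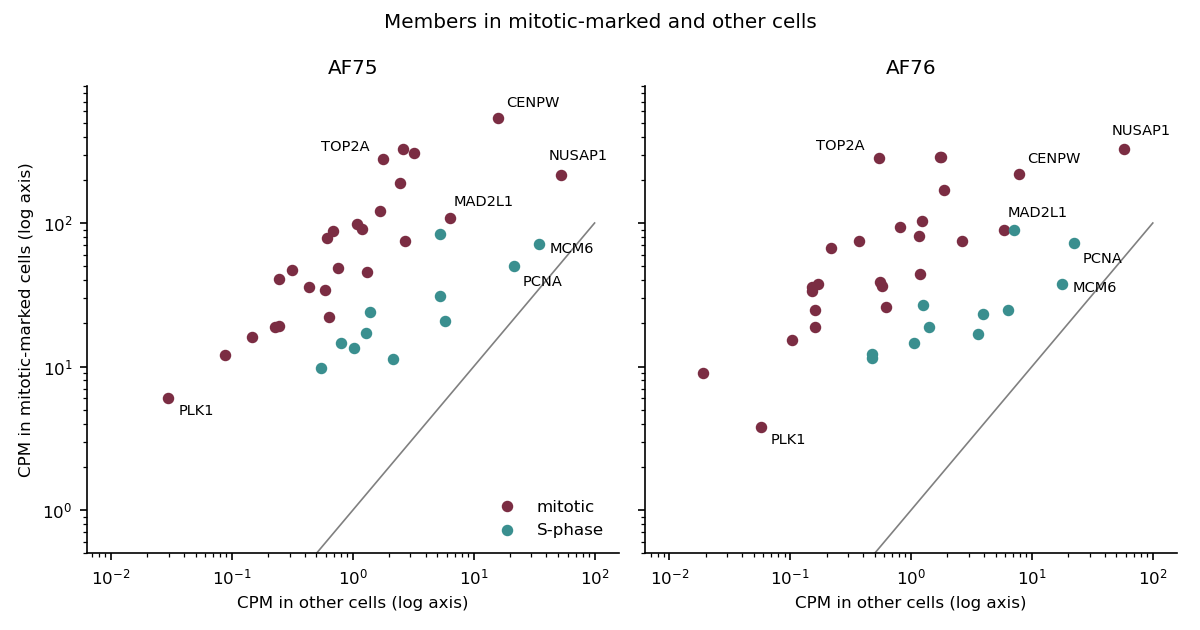
CPM of each gene in mitotic-marked cells (vertical) against other cells (horizontal), both on log axes, in AF75 and AF76, with the line of equal CPM. Each gene lies above the line. The median ratio is 82.3 and 115 for mitotic and 13.2 and 12.5 for S-phase genes, with overlap between the groups, and MCM6, PCNA and NUSAP1 have the highest levels in other cells.

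Within marked cells the direction of the gap between the follicles depended on the mark for the mitotic genes and not for the S-phase genes, whose median was above 1 under each of 4 marks. At 5 UMIs over 3 genes the median ratio of AF76 to AF75 was 0.902 for the mitotic genes, and at 10 UMIs over 5 genes it was 1.13. For the S-phase genes the medians were 1.11 and 1.46. At the first limit 2 of 25 mitotic genes, CENPW and PLK1, and 1 of 11 S-phase genes, MCM6, lay at or below 1/1.5, against 7.14% of the 9066 genes tested in these cells, and NUSAP1 was the 1 gene at or above 1.5, against 5.05%. Without the mitotic mark the medians were 0.715 and 1.04, with 10 of 25 and 2 of 11 at or below 1/1.5, against 4.25% of 12071 genes. PLK1 (from 3 and 6 UMIs) and TYMS lay at or above 1.5, against 4.01%. The 12071 genes had at least 50 UMIs over both follicles, a limit not set for the 25. Of the 10, it was missed by CDCA8 (32 and 16 UMIs), DIAPH3 (25 and 16), KIF20A (25 and 17) and CENPA (9 and 2). Of the others, PLK1, AURKB (15 and 11) and BUB1B (23 and 17) missed it. The 10 of 25 is thus not a share of like genes.

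Most S-phase genes and several mitotic genes lay on the same side of 1 at both limits, such as ATAD2 (1.07 and 1.41) and TOP2A (1.01 and 1.30). CENPW, MCM6, NUSAP1 and PCNA are given here as genes of many UMIs whose intervals lay on the same side of 1 at both limits. The same held for TYMS, with fewer UMIs, at 1.48 and 1.76. The intervals of CENPF did not include 1 either, but lay on opposite sides of it. Its ratios were 0.889 (0.827 to 0.955) and, at the stricter limit, 1.13 (1.06 to 1.22). Marked cells had 541 CPM of CENPW in AF75 and 221 in AF76 (0.408, 0.377 to 0.442), 0.504 at the stricter limit, and other cells had 15.7 and 7.79 CPM. MCM6 had 70.9 and 37.7 CPM in marked cells (0.532, 0.440 to 0.640), 0.639 at the stricter limit, and 0.511 in other cells. Both were lower in AF76 with and without the mark. NUSAP1 was higher in marked cells of AF76, with 1.5 and 1.52 at the 2 limits, and so was PCNA with 1.44 and 1.73.

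Among the cells with at least 20 UMIs over 10 mitotic genes, the S-marked cells were set beside the rest, 76 against 337 in AF75 and 44 against 67 in AF76. The mitotic genes had a median ratio of S-marked to other cells of 1.18 in AF75, with 9 intervals above 1, and of 0.997 in AF76, with 2 above 1. CENPW was the 1 gene with an interval below 1 in AF75, at a ratio of 0.602 (0.550 to 0.659), and in AF76 its ratio was 1.00 (0.857 to 1.17). In AF76 the genes with an interval below 1 were CCNB1 (0.683, 0.467 to 0.987), BIRC5, the passenger protein survivin (0.760, 0.589 to 0.977), and UBE2C (0.742, 0.650 to 0.846), which in AF75 had 1.00, 1.09 and 1.08. The S-marked cells were deeper, with medians of 17681.5 against 15429 UMIs and 22434.5 against 17822, and the part of depth in these ratios was not tested.

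Over thinned cells the pairwise correlation of log2(UMIs + 1) had a median of 0.228 between mitotic genes in AF75 (300 pairs, 9343 cells) and 0.233 in AF76 (7738 cells). Between S-phase genes it was 0.0414 and 0.0365 (55 pairs), and between the groups 0.0833 and 0.0601 (275 pairs). All cells of a follicle share a library and these counts are sparse, so the values describe the follicle and weak ones say nothing. The highest pair in AF75 was CENPF with TOP2A at 0.684, and in AF76 TOP2A with UBE2C at 0.717. Within the mitotic-marked cells after thinning, the median between mitotic genes was only 0.0622 in AF75 (468 cells) and 0.107 in AF76 (119 cells). Between S-phase genes it was 0.0460 and 0.0749 there, and between the groups 0.0288 and -0.00572.

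Of the further mitotic genes, 41 of 45 in AF75 and 40 of 44 in AF76 were at least 2 times higher in marked cells, with medians of 16.6 and 14.1. Among them NDC80, the outer kinetochore protein, was at 39.2 against 0.236 CPM and at 34.5 against 0.143 CPM. The structural genes STMN1, TUBB4B and TUBA1B had ratios of only 1.33 to 2.12 from levels of 349 to 3464 CPM. Of the further S-phase genes 19 of 30 and 17 of 28 were at least 2 times higher, with medians of 3.11 and 2.43, led by PCLAF, the PCNA clamp factor, at 122 and 384. Of the 17 genes of the standing machinery, 3 and 2 were, among them RBL1 at 2.94 and 2.52, with list medians of 1.14 and 1.10. Of 8 genes of cycle entry none were, with medians of 0.935 and 0.938. The list medians thus fell from mitotic through S-phase to standing genes in both follicles. Of all genes tested, 4.55% in AF75 and 3.84% in AF76 were at least 2 times higher in marked cells.

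Outside the lists, 6440 genes had at least 50 UMIs in the marked cells of each follicle. The 10 with the highest ratio in the follicle where it was lower were led by ENSSSCG00000002849, named SHCBP1 in a reference table of gene names, at 50.4 against 0.403 CPM in AF75 and 48.6 against 0.228 CPM in AF76. They included PRR11, MTFR2, IQGAP3, DEPDC1 and POC1A, and 4 identifiers of which 1 is CDK1 in the same table. The 10 lowest included ENSSSCG00000008294 (ACTG2, a smooth muscle actin), ENPP2, RGN, GCG, PCSK1N, NPTX1, TMOD1, HSPB3 and CCNG1. GCG, the glucagon gene, was at 176 against 326 CPM and 220.4 against 477 CPM, and HSPB3, a small heat shock protein, at 326 against 854 CPM and 767 against 1324 CPM.

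Granulosa genes differed between marked and other cells in both directions. Of 25 tested in AF75, 15 were higher in marked cells, with a median ratio of 1.21, and of 24 in AF76, 11 were, with a median of 0.904. Lower in both follicles were several genes of steroid synthesis and signalling. CYP19A1, the aromatase that makes estradiol, was at 11.3 against 23.4 CPM in AF75 (ratio 0.485) and at 21.2 against 32.2 CPM in AF76 (0.658). IL33 was at 0.455 and 0.598, TGFB3 at 0.339 and 0.532, AREG, an EGF-like ligand, at 0.565 and 0.710, INHA at 0.642 and 0.846 and STAR, which brings cholesterol to the steroid enzymes, at 0.456 and 0.810. CYP11A1, the first of those enzymes, was level at 0.967 and 1.01. The steroid gene FDX1 went the other way, at 1.08 (1.06 to 1.10) in AF75 and 1.12 (1.09 to 1.15) in AF76.

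The cumulus matrix gene VCAN was higher, at 3074 against 1959.9 CPM in AF75 (1.57) and 522 against 423 CPM in AF76 (1.23). SHAS2, a hyaluronan synthase, had 2.34 and 3.90, and TNFAIP6, which links hyaluronan, 2.21 and 1.01. INHBA, a beta subunit of inhibin and activin, had 1.81 and 1.15, APOA1 1.24 and 1.12, GATA4 1.39 and 1.02 and GJA1, a gap junction protein, 1.29 and 1.03.

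Of markers of other cells, the 9 theca genes together had 87.7 CPM in marked against 331 in other cells of AF75 and 373 against 512 in AF76, nearly all of it INSL3, at 86.2 and 365 CPM in marked cells. CYP17A1 had 1 and 0 UMIs in the marked cells, and COL1A2 was higher in those of AF76, with 12 UMIs (2.14, 1.08 to 3.85). The 6 endothelial genes together had 28.9 against 51.4 CPM and 45.1 against 57.0 CPM, and of them VWF had 0 and 11 UMIs in marked cells (2.01 in AF76, 0.985 to 3.70). PTPRC had 0 UMIs in the marked cells of both, and the 10 immune genes together had 18.9 CPM in marked against 23.5 CPM in other cells of AF75 and 15.7 against 30.6 CPM in AF76. HBB was at 358 CPM in the marked cells of AF76, where 1 barcode held 1274 of its 1319 UMIs.

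Cells were then ordered within each follicle by the level of 4 granulosa genes and cut into quintiles. In AF75 the marked share fell from 12.0% in the quintile with least IL33 to 1.92% in that with most, and from 10.6% to 3.15% over AREG. It was higher with more VCAN, from 2.19% to 10.4%, and over APOA1 it was 2.40% in the lowest quintile and 8.71% in the next to highest. In AF76 the shares were 3.89% to 1.34% over IL33 and 3.25% to 1.59% over AREG. Over VCAN they were 1.31% in the 3137 cells with least, which are the 2 lowest quintiles joined because the cells with no VCAN UMI fill more than the lowest, and then 3.76%, 3.38% and 3.25% up to the quintile with most, so that the share was highest in the middle quintile, unlike in AF75. In the quintile with most IL33 the intervals of the follicles overlapped (1.35 to 2.65% and 0.830 to 2.04%), and in that with least they did not (10.5 to 13.5% and 2.99 to 4.97%). Thinned to 5000 UMIs, the share over IL33 was 10.5% to 0.910% in AF75 and 3.26% to 0.383% in AF76. The cells with least IL33 were shallower, with medians of 10616 against 11804 UMIs in AF75 and 11887 against 14889 in AF76.

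**Figure D4:**
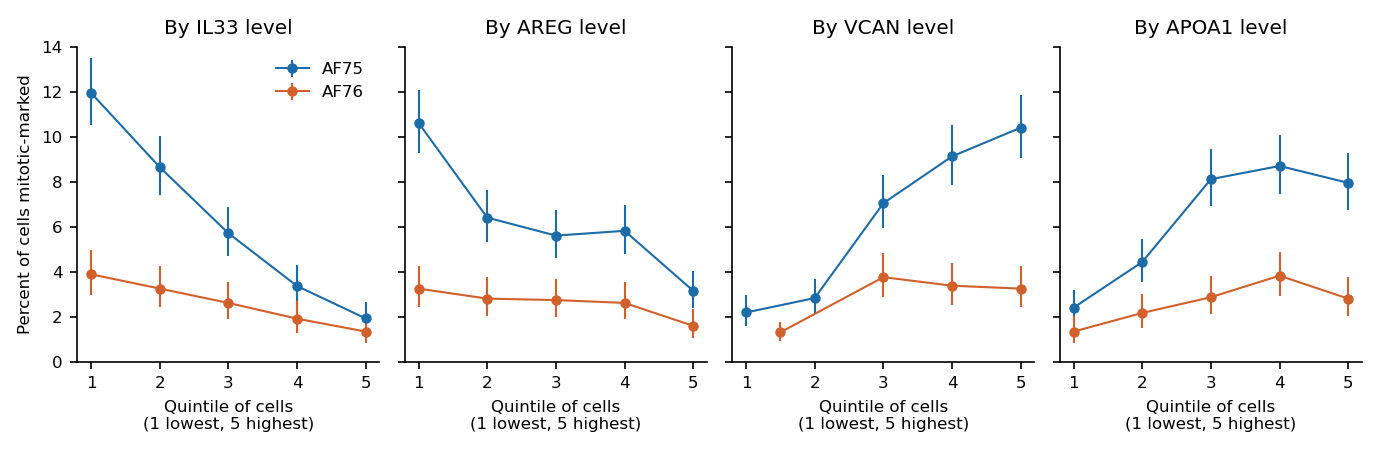
Percent of cells that were mitotic-marked, with exact 95% binomial intervals, in quintiles of the cells of AF75 and AF76 by CPM of IL33, AREG, VCAN and APOA1. The first and second quintile by VCAN are joined in AF76 and drawn at 1.5. In AF75 the share falls from 12.0% to 1.92% over IL33 and rises from 2.19% to 10.4% over VCAN, and in AF76 the same ends are 3.89% to 1.34% and 1.31% to 3.25%, with the highest share over VCAN, 3.76%, in the third quintile.

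Rarer states also held marked cells. Of the cells with at least 30 UMIs of SPP1, ALDH1A2 and SCG2 together, 20 of 405 (4.94%) in AF75 and 20 of 595 (3.36%) in AF76 were marked, against 6.39% and 2.54% of the remaining cells. Of those with at least 10 UMIs of CEMIP, CCDC80 and DEFB1, a limit that cells reached only in AF76, 12 of 307 (3.91%, 2.04 to 6.73%) were, against 2.55% of the remaining cells, although their median depth was 6875 UMIs. Of cells with at least 5 UMIs of the interferon genes IFIT1, RSAD2 and MX1, 2 of 49 in AF75 were marked and 0 of 53 in AF76, where 3 counts of the total would be a share of 5.66% and the Clopper-Pearson bound is 6.72%.

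The genes with UMIs left outside the marked cells did not move together there. Over quintiles by VCAN in the unmarked cells of AF75, MCM6 was at 17.9, 17.5, 20.7, 42.0 and 84.1 CPM, and was thus highest where VCAN was highest. CENPW was at 9.0, 10.8, 12.5, 16.3 and 26.5 CPM and MCM5 at 2.67, 3.70, 4.73, 6.53 and 9.21 CPM. PCNA went the other way, from 23.9 CPM in the lowest to 15.2 CPM in the highest quintile, and so did NUSAP1, from 56.6 to 38.4 CPM, TYMS, from 2.62 to 1.37 CPM, and ATAD2, from 6.93 to 4.17 CPM.

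In the unmarked cells of AF76 the same genes differed less over VCAN. MCM6 was at 14 CPM in the lowest 2 quintiles and 25.6 CPM in the highest, CENPW at 5.32 and 10.5 CPM, and MCM5 at 2.74 and 5.41 CPM. PCNA was at 23.4 and 20.9 CPM and NUSAP1 at 57.8 and 58.4 CPM, with intervals that overlap. Even in the highest quintile MCM6 of AF76 stayed below the 42.0 CPM of the fourth quintile of AF75. VCAN over all kept cells was at 2054 and 426 CPM, and its part in the lower MCM6, CENPW and MCM5 of AF76 was not tested beyond these quintiles. Over AREG, MCM6 was highest in the lowest quintile in both, at 71.5 CPM in AF75 and 28.5 in AF76, against 18.9 and 13.6 CPM in the highest.

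**Figure D5:**
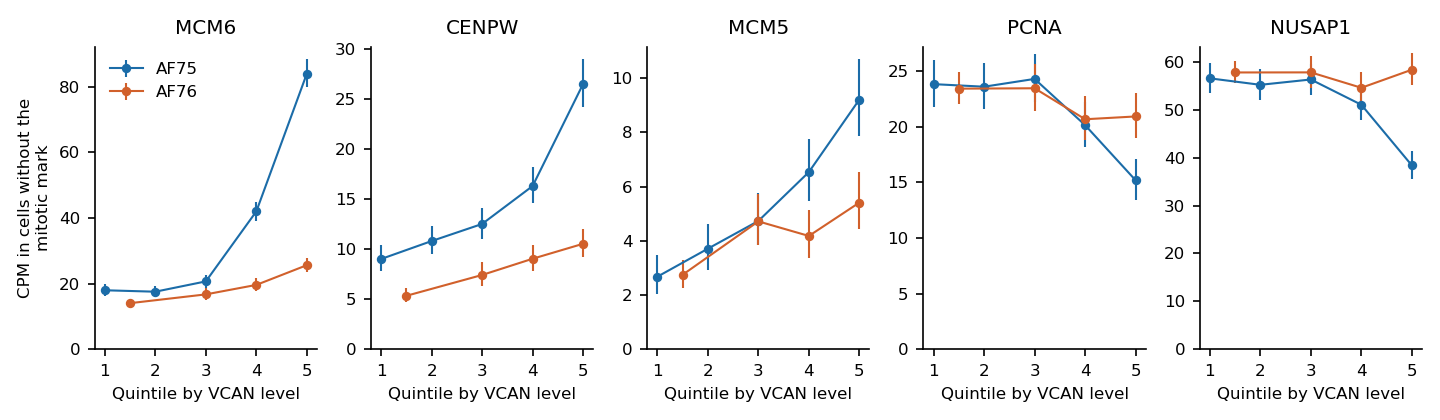
CPM of MCM6, CENPW, MCM5, PCNA and NUSAP1, with exact 95% Poisson intervals, in cells without the mitotic mark, by quintiles of cells of AF75 and AF76 ordered by VCAN. The first and second quintile are joined in AF76 and drawn at 1.5. MCM6 reaches 84.1 CPM in the highest quintile of AF75 and 25.6 CPM in that of AF76, and PCNA and NUSAP1 are lowest in the highest quintile of AF75.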

How the data were processed

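Somatic cells of 2 follicles were measured by 10x single-cell RNA sequencing, with 1 library each. The authors ran CellRanger 6.0.2 against the Sscrofa11.1 genome and deposited its matrices, in which each value is a count of UMIs that is neither normalized nor filtered by cell quality. The file totals were 125409747 UMIs in 14289 barcodes of AF75 and 127414267 UMIs in 15548 barcodes of AF76, and the kept cells held 111226504 and 108920601.

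Barcodes were kept with 2000 to 5000 genes and under 7% of UMIs from 13 mitochondrial genes. Doublets were left in, and removing the 6.9% of barcodes with the highest Scrublet score was an alternative. UMIs were summed over cells and given as CPM, with Poisson intervals, Clopper-Pearson intervals for shares and exact conditional intervals for ratios, all at 95%. The interval of a difference of shares combines the Clopper-Pearson bounds of both by square and add. With 1 library per follicle no p-value is given. A ratio counted as past the fold at 1.5 between follicles and 2 between cells, for genes with at least 50 UMIs. The intervals and the marking of cells were tested on simulated data. Python 3.11.15, numpy 2.4.6, scipy 1.17.1, pandas 2.3.3, scanpy 1.11.5 and matplotlib 3.10.9 were used.

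The members and lists were chosen with earlier results of these data known. Named were each listed member, the genes of the lists, and the 10 highest and 10 lowest other genes by the less extreme ratio of the follicles, of which 1 is not reported here. The mark of 20 UMIs over 10 genes, the ratios within cells of the stricter mark and the mark without NUSAP1 were chosen after values were seen. Promoters were read from the RefSeq annotation and genome of Sscrofa11.1. Clusters were not built. The alternatives were a range of 500 to 6000 genes, up to 10% mitochondrial UMIs, every barcode in the files, the doublet score, thinning to 5000 UMIs, a looser mark (mitotic 3 UMIs over 2 genes, S-phase 5 over 3), a stricter mark (10 over 5, and 15 over 6), the mean of per-cell CPM, totals that leave out ribosomal protein and mitochondrial genes, and sums without the gene of most UMIs (NUSAP1, MCM6).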

Additional observations from a re-analysis of the deposited data

Results flagged for a closer look

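Barcodes outside the limits on cells also carried mitotic UMIs. Of barcodes with over 5000 genes, 49.6% in AF75 (69 of 139) and 25.3% in AF76 (42 of 166) were mitotic-marked, with median depths of 30851 and 30612.5 UMIs, and 21 and 23 of them were S-marked. The upper limit on genes thus left out cells with a higher marked share than the kept ones, and the part of depth or doublets in this was not tested. Of barcodes with under 2000 genes, 2.35% in AF75 (108 of 4595) and 0.933% in AF76 (69 of 7397) were mitotic-marked, at median depths of 1303 and 1180.0 UMIs. Of barcodes within the limits on genes but with at least 7% mitochondrial UMIs, 5.70% in AF75 (11 of 193) and 2.11% in AF76 (3 of 142) were.

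For 2 granulosa genes the ratio of marked to other cells lay on opposite sides of 1 in the follicles, with intervals that did not include 1. INHBB, a beta subunit of inhibin, was at 1.97 in AF75 and 0.755 in AF76. FST, the activin-binding protein follistatin, was at 1.15 in AF75 and 0.867 in AF76. The difference between the follicles was not tested.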

How the results depend on the processing

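With 10 results under the alternatives set for each, 80 values were computed. Of these, 39 stayed within the interval of the reported value and 41 moved outside it. The direction turned in none but the S-marked share after thinning. For the median shares of UMIs, the interval used was the Clopper-Pearson interval of the share of the pooled UMIs, shifted to the median. It covers counting error of the pooled share and not the spread over genes. The difference in the mitotic-marked share, 3.72 percentage points, stayed within its interval in each of its alternatives. That in the S-marked share was -0.00444 after thinning, where 2 cells in each follicle were marked, and 1.77 at the looser mark. The log2 ratio of the mitotic sum (-0.99) was -0.92 with 500 to 6000 genes, -0.91 with all barcodes, -0.84 after thinning, -0.87 as a mean of per-cell CPM and -1.40 without NUSAP1, and that of the S-phase sum (-0.44) was -0.39 with 500 to 6000 genes, -0.36 after thinning, -0.35 as a mean of per-cell CPM and -0.18 without MCM6.

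The median share of a mitotic gene's UMIs in marked cells was, in AF75, 86.9% with all barcodes, 82.8% after thinning, 90.3% at the looser and 87.6% at the stricter mark, and in AF76 77.6% with 500 to 6000 genes, 76% with all barcodes, 72.2% after thinning and 79.1% at the stricter mark. That of an S-phase gene was, in AF75, 55.8% with 500 to 6000 genes, 57.8% with all barcodes, 56.0% without high doublet scores, 40% after thinning, 59.7% at the looser and 52.4% at the stricter mark, and in AF76 33.7% with 500 to 6000 genes, 32.9% with all barcodes, 19.7% after thinning and 36.7% at the looser mark. The log2 ratio of the S-phase sum between marked and other cells was, in AF75, 2.05 with 500 to 6000 genes, 2.19 without high doublet scores, 2.34 after thinning, 1.36 at the looser mark, 2.29 at the stricter mark and 2.74 without MCM6, and in AF76 2.30 with all barcodes, 2.53 without high doublet scores, 2.85 after thinning, 1.02 at the looser mark, 2.94 at the stricter mark, 2.30 as a mean of per-cell CPM and 3.17 without MCM6. The cause of these moves was not tested, apart from the looser mark, which by construction adds cells with fewer mitotic UMIs.

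Within marked cells the median log2 ratio of the mitotic genes between follicles turned from -0.15 to 0.18 at the stricter mark, 0.20 with NUSAP1 left out of the mark and 0.22 with the mark set on thinned cells, and that of the S-phase genes went from 0.16 to 0.54, 0.53 and 0.57, all 3 chosen after the data were seen. No paired analysis was possible because each follicle is 1 library. With 1 library per follicle and 1 pig, a difference between follicles has no replicate check, and intervals cover counting error only. For genes under 1 CPM such as PLK1 and CENPA the intervals are wide, and a count of S-phase cells is not possible at 5000 UMIs per cell.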

Other observations

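Of the 7 genes not listed under their symbol, 3 were found by an identifier that a reference table of gene names pairs with them, and are given here apart from the counts above. CDK1, the kinase that drives entry into mitosis, was at 7.04 CPM in AF75 and 2.31 in AF76 (ratio 0.329, 0.284 to 0.379), with 90.8% and 83.7% of its UMIs in mitotic-marked cells. BUB1, a checkpoint kinase, was at 2.08 and 0.826 CPM (0.398, 0.308 to 0.510), with 81.0% and 68.9%. KIF23, a motor of cytokinesis, was at 7.56 and 5.74 CPM (0.759, 0.683 to 0.843), with 59.6% and 28.2%. KIF23 was thus less confined to marked cells and less different between the follicles than CDK1 and BUB1, and it was not counted as past 1/1.5.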
